A study of Mus musculus with 60 samples.

Results

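Brain gene expression was related to the mass of the spleen and to the total mass of the tumors in 10 tumor-bearing mice, 5 collected at mid-dark (ZT19) and 5 at mid-light (ZT7), each with values for hippocampus, hypothalamus and brain stem. These 10 mice gave 30 of the 56 samples with values, out of 60 samples from 20 mice in the series. All mice were female Balb/C, 13 weeks old at collection and perfused before the brain was removed on day 25 after injection. Tumor-bearing mice had 67NR cells, which trace to 1 mammary carcinoma and do not metastasize, placed in mammary glands 4 and 9, and the other mice had received the DMEM vehicle. The 6 vehicle injected mice with values in all 3 regions served as background. They came from both phases, most of them from mid-light, and their ranges are given over both phases together. The samples were chosen by their labels, and no expression value was used to choose them.

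A growing tumor releases cytokines and growth factors that drive the production of myeloid cells, and in mice the spleen can host part of that production and enlarge. The same circulating signals reach the brain mainly at its blood vessels, where endothelial cells carry receptors for interleukin-1 and for the interleukin-6 family and respond with secreted acute-phase proteins and prostaglandin synthesis. Microglia, the resident macrophages, and astrocytes respond in turn. The nCounter Mouse Neuroinflammation Panel counts mRNA of such genes together with markers of neurons, glia and blood-borne immune cells.

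Samples of a region resembled each other closely, with correlations over genes of 0.975 to 0.993 for hippocampus and 0.981 to 0.994 for the other regions, and no pair was identical. Of 10 genes that mark a region, 6 were higher in each of the 10 samples of that region than in each of the other 20. Ttr encodes transthyretin, secreted by the choroid plexus, the structure in the ventricles that makes cerebrospinal fluid. It ranged from 5.36 to 14.58 on the log2 scale in hippocampus and from 6.78 to 13.77 in brain stem. Whether the samples held unequal amounts of that tissue was not tested. Transcripts of blood-borne cells were scarce. None of 16 T and NK cell markers and 1 of 8 B cell markers had a mean log2 value of at least 5.

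At mid-dark the spleens weighed 0.214, 0.237, 0.238, 0.256 and 0.269 g in mice 11, 23, 7, 19 and 3. At mid-light they weighed 0.184, 0.202 and 0.203 g in mice 29, 5 and 1, and 0.263 and 0.268 g in mice 13 and 9. The mid-light spleens thus formed a light set of 3 and a heavy set of 2, whereas the mid-dark spleens showed no such gap, and all were heavier than the 0.107 to 0.135 g of the vehicle injected mice. Total tumor mass was 5 g in mouse 11, 4.44 g in mouse 23, 4.64 g in mouse 7, 3.24 g in mouse 19 and 3.7 g in mouse 3 at mid-dark. At mid-light it was 2.31 g in mouse 29, 3.2 g in mouse 5, 3.63 g in mouse 1, 3.12 g in mouse 13 and 4.67 g in mouse 9. At mid-dark the lightest spleen came from the mouse with the heaviest tumors, while at mid-light mouse 29 was lowest and mouse 9 highest in both.

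**Figure D1:**
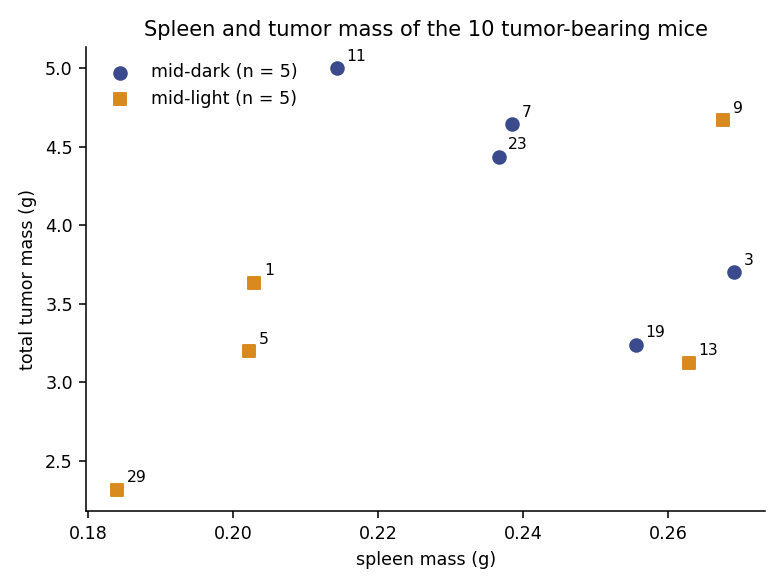
Total tumor mass in g against spleen mass in g, 1 point per tumor-bearing mouse, with the mouse number beside it; circles are mid-dark and squares mid-light, 5 mice each. The mid-light spleens fall into a light set of 3 and a heavy set of 2, and mice 9 and 29 lie at opposite corners.

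After centring within phase, Pearson's r between spleen and tumor mass was 0.183 over the 10 mice (exact permutation test within phase, two-sided, p = 0.681, adjusted p = 0.931 over 11 relations among masses and RNA measures; Spearman's rho 0.139, exact p = 0.748). Without mice 9 and 13, whose spleens were farthest from the median, r was −0.496, so neither its size nor its sign is settled by these mice. Spleen mass and body mass had r = 0.546 (exact permutation p = 0.138, adjusted p = 0.508; rho 0.527, exact p = 0.163; 0.545 without those 2 mice). The r of tumor mass with the mean A260/A280 absorbance ratio of the RNA, which falls when protein or phenol remains, was 0.769 (exact permutation p = 0.0234, adjusted p = 0.129; rho 0.818, exact p = 0.0135; 0.856 without mice 9 and 29). Neither this relation nor those by region passed adjustment. In brain stem samples the ratio spanned 1.34 to 1.99 and r was 0.791 (exact permutation p = 0.0171, adjusted p = 0.102 over 6 relations), against a span of 1.93 to 2.01 in hippocampus. For some leading genes and for 6 of the lists, slopes along tumor mass are also given with the mean ratio over regions in the model. With r = 0.769 between the ratio and tumor mass over 10 mice, that model separates them poorly. A changed sign or count in it does not settle which of them a gene follows.

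For each of the 770 genes the log2 value was averaged over the 3 regions of a mouse, and its slope along each mass was fitted with phase in the model. A slope is the change in log2 value per within-phase SD of the mass, which was 0.0309 g for the spleen and 0.793 g for the tumors. Among the genes with the smallest p along spleen mass, Lrg1, a secreted glycoprotein of the acute phase, Lcn2, the iron-carrier binding protein lipocalin 2, and Slc2a1, the glucose transporter of the blood-brain barrier, had positive slopes. So did Cd14, a co-receptor for bacterial lipopolysaccharide on myeloid cells, and Bcl2, an inhibitor of apoptosis, whereas Gpr62 and Cd40 had negative ones. None of the 770 genes passed an adjusted p of 0.05 in either direction, and the smallest adjusted p was 0.451. At an unadjusted p under 0.05 there were 49 genes, or 6.36% of those tested, of which 28 had positive slopes (3.64%) and 21 negative slopes (2.73%). The exact permutation test of the masses within phase gave 34 genes at an unadjusted p under 0.05 and none after adjustment.

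Lcn2 had the steepest slope of these genes. In order of spleen mass its log2 value was 7.29, 7.65, 7.65, 7.79 and 6.73 at mid-dark. At mid-light it was 5.88, 6.41 and 6.70 in the mice with light spleens and 8.08 and 8.59 in those with heavy spleens. The mid-light sets did not overlap, whereas at mid-dark the mouse with the heaviest spleen, mouse 3, had the lowest value. All 10 values lay above the 3.50 to 5.05 of the vehicle injected mice. The slope was 0.66 ± 0.18 (SE, n = 10 mice; adjusted p = 0.511), and r was 0.758 (exact permutation p = 0.0681, adjusted p = 0.836; rho 0.758, exact p = 0.0558) but −0.0869 without mice 9 and 13. With the 30 samples fitted together and mouse as a random replicate block, the same slope had an adjusted p of 0.027. That fit enters the 3 regions of a mouse as separate samples, with 1 correlation of 0.147 between them for all genes. Spleen mass has only 1 value per mouse, so this p can be too small. In the fit of values averaged per mouse, the slope without mouse 3 was 0.85, with an adjusted p of 0.00216.

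Lrg1 was 4.84, 5.06, 4.65, 5.55 and 5.10 in mid-dark mice in order of spleen mass, and the mid-light mice had 4.78, 5.19, 5.01, 5.79 and 5.56. The 2 heaviest spleens of each phase went with values of at least 5.10 and the others with values of at most 5.19, and vehicle injected mice had 4.26 to 4.90. The slope was 0.30 ± 0.07 (SE, n = 10; adjusted p = 0.451), with r = 0.808 (exact permutation p = 0.0149, adjusted p = 0.836; rho 0.782, exact p = 0.0278) and 0.59 without mice 9 and 13. Slc2a1 was 9.57, 9.63, 9.67, 9.72 and 9.67 in mid-dark mice in the same order, and the mid-light mice had 9.57, 9.55, 9.56, 10.01 and 9.80. Both mice with heavy spleens at mid-light stood above all others. Its slope was 0.13 ± 0.03 (adjusted p = 0.451), with r = 0.854 (exact permutation p = 0.0114, adjusted p = 0.836; rho 0.855, exact p = 0.0181) and 0.71 without these 2 mice. With mouse as a random replicate block its adjusted p was 0.027, under the same limit as for Lcn2.

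Cd14 ranged from 6.08 to 6.81 (vehicle injected mice 6.28 to 6.62), with a slope of 0.16 ± 0.04 (SE, n = 10; adjusted p = 0.451). Bcl2 ranged from 7.43 to 7.75 (vehicle injected mice 7.49 to 7.76), with a slope of 0.10 ± 0.03 (adjusted p = 0.727).

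**Figure D2:**
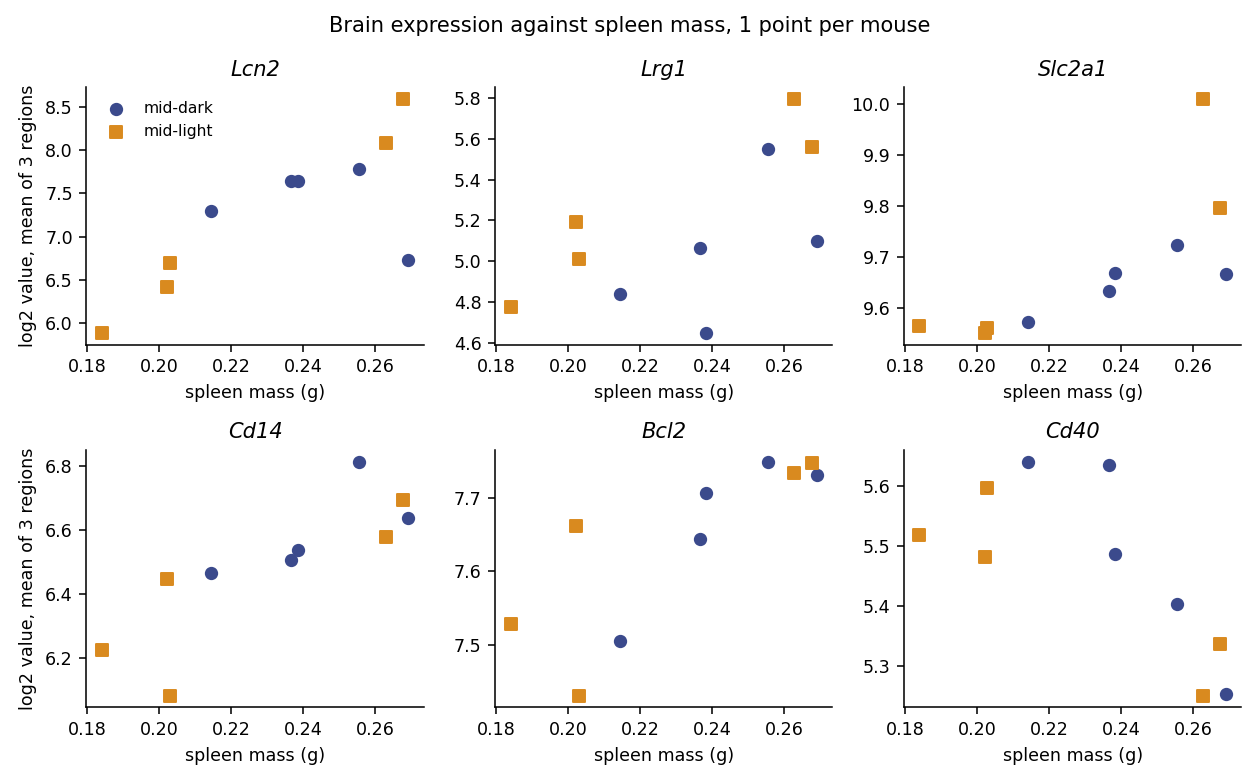
Log2 value, averaged over the 3 regions, against spleen mass in g for Lcn2, Lrg1, Slc2a1, Cd14, Bcl2 and Cd40, 1 point per tumor-bearing mouse; circles are mid-dark and squares mid-light. The 2 mid-light mice with heavy spleens lie apart from the other 3 for Lcn2 and Slc2a1, and Cd40 is lowest in the mice with the heaviest spleens.

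An earlier analysis of these data found 11 genes higher in tumor-bearing than in vehicle injected mice: Lcn2, Lrg1, Ly6a, Il1r1, Ch25h, Osmr, Ptgs2, Fas, Tgm2, Slc2a1 and Bcl2l1. They include Il1r1 and Osmr, receptors for interleukin-1 and oncostatin M, Ptgs2, the inducible enzyme of prostaglandin synthesis, and Ch25h, which makes 25-hydroxycholesterol. Among tumor-bearing mice, 10 of the 11 had a positive slope along spleen mass, against 49.9% of all genes, with a median slope of 0.13 (all genes −0.00055). An unadjusted p under 0.05 was found for 5 of these slopes, those of Lcn2, Lrg1, Slc2a1, Ptgs2 and Tgm2, against 3.64% of all genes with a positive slope, and the exact permutation test gave 2. The list was chosen on these mice and is not independent evidence of a direction. Averaged over the 11 genes, the log2 value was 7.34, 7.32, 7.28, 7.46 and 7.30 at mid-dark in order of spleen mass. At mid-light it was 7.17, 7.22 and 7.29 with light spleens and 7.66 and 7.73 with heavy spleens, and vehicle injected mice had 6.71 to 6.80. The list mean thus differed little among mid-dark mice and separated the mid-light mice by spleen mass.

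Ptgs2 had a slope of 0.15 ± 0.05 and Tgm2, a transglutaminase, one of 0.13 ± 0.05 (SE, n = 10; adjusted p = 0.727 for each). Ch25h had 0.15 ± 0.09, Ly6a, a surface antigen of brain endothelium, 0.11 ± 0.05, and Il1r1 0.11 ± 0.06. Osmr and Bcl2l1, which also opposes apoptosis, were close to 0 at 0.04 ± 0.04 and 0.04 ± 0.03, and the death receptor Fas had −0.02 ± 0.06. Without mice 9 and 13, r along spleen mass fell from 0.744 to 0.091 for Ptgs2 and from 0.699 to 0.072 for Tgm2. It fell from 0.509 to 0.096 for Ch25h and from 0.500 to −0.238 for Il1r1, whereas Ly6a had 0.600 and 0.479. Along tumor mass 9 of the 11 slopes were above 0, against 52.6% of all genes, the median was 0.03 and no gene of the 11 had an unadjusted p under 0.05. In hippocampus taken alone the median along tumor mass was 0.10, against 0.07 along spleen mass there. Of the 11, 3 had a positive slope and an unadjusted p under 0.05 (2.6% of all genes), and Lcn2 had 0.59 ± 0.21 there (adjusted p = 0.818). With the A260/A280 ratio in the model for the mean over regions, 10 of the 11 slopes along tumor mass were positive (median 0.07) and 1 had an unadjusted p under 0.05, against 1.82% of all genes with a positive slope. Over the regions Lcn2 had 0.48 ± 0.23 (adjusted p = 0.931), Lrg1 −0.02 ± 0.12, Slc2a1 0.01 ± 0.05, Ly6a −0.10 ± 0.05 and Fas 0.10 ± 0.05. The difference between the slopes along spleen and tumor mass was not tested.

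**Figure D3:**
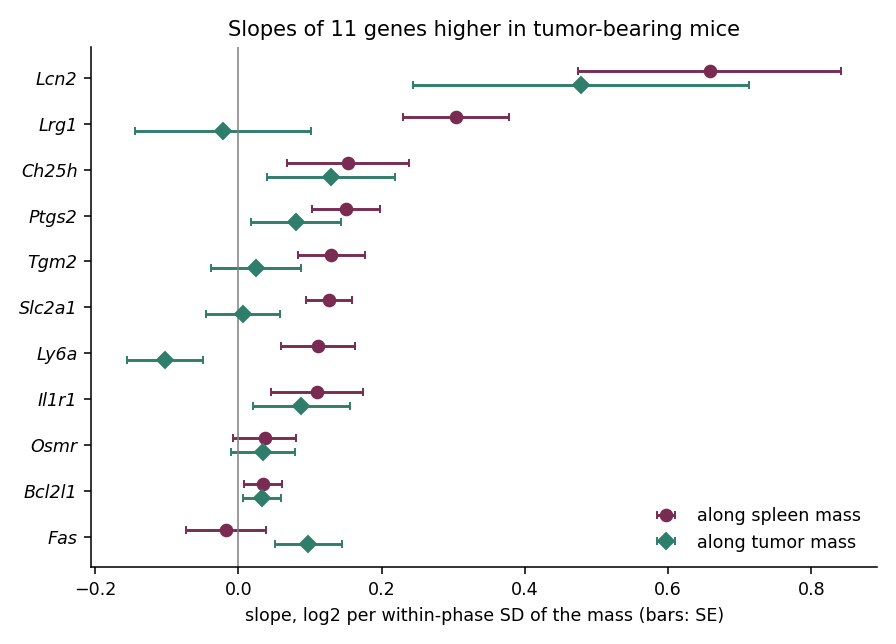
Slopes of the 11 genes found higher in tumor-bearing mice, in log2 per within-phase SD of the mass, along spleen mass (circles) and tumor mass (diamonds); bars are SE from the fit over 10 mice. All but Fas lie above 0 along spleen mass, and Lcn2 has the steepest slope on both.

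Of 10 acute-phase and secreted genes, 9 had positive slopes along spleen mass (49.9% of all genes), 4 with an unadjusted p under 0.05 (3.64% of all genes), and Lcn2 and Lrg1 are shared with the list above. In hippocampus 5 were positive and 5 negative, of which 2 and 1 had an unadjusted p under 0.05. Of all genes there, 1.82% had a positive slope at that threshold and 3.38% a slope in either direction. For the mean over regions, the shares of 49.9% and 3.64% of all genes are also the background of the next lists. Of 19 measured genes of interleukin-1, interleukin-6 type and NF-kB signaling, 15 had positive slopes and 3 an unadjusted p under 0.05: Ptgs2, Nfkbia, the inhibitor that NF-kB itself induces (0.12 ± 0.05), and Socs3, the feedback inhibitor of interleukin-6 type signaling (0.13 ± 0.05). Socs3 was 5.21 in mouse 9, which had the heaviest mid-light spleen, and 4.56 to 4.74 in the other mid-light mice. Without mice 9 and 13, r fell from 0.635 to 0.233 for Socs3 and from 0.659 to 0.399 for Nfkbia. Of 17 genes of phagocytic and disease-associated microglia, 15 had positive slopes. The 3 with an unadjusted p under 0.05 were C1qa, C1qb and C1qc, which together encode the complement component C1q, with slopes of 0.10 ± 0.04, 0.09 ± 0.04 and 0.10 ± 0.04 (adjusted p = 0.727 for each). Trem2, a microglial receptor in the same list, had 0.02. Markers of resting microglia were divided, 4 above and 4 below 0, none with an unadjusted p under 0.05.

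Of 16 interferon-induced genes 6 had positive and 10 negative slopes along spleen mass, and Ifih1, a sensor of viral RNA, had the smallest p (slope −0.13 ± 0.05, adjusted p = 0.727). In hypothalamus 10 were positive and 6 negative (median 0.07), 2 of the positive ones with an unadjusted p under 0.05, against 3.38% of all genes there. Markers of circulating cells with an unadjusted p under 0.05 numbered 0 of 6 for neutrophils, 1 of 16 for T and NK cells, 0 of 8 for B cells and 0 of 4 for mast cells, against 6.36% of all genes. In brain stem they numbered 2 of 6 neutrophil genes with positive slopes (4.55% of all genes there) and 2 of 4 mast cell genes with negative slopes (2.34%). Their levels in the tumor-bearing mice, as the log2 of the summed linear values, were 7.82 to 8.18 for neutrophils and 7.74 to 7.99 for T and NK cells, against 7.94 to 8.14 and 7.73 to 7.95 in vehicle injected mice. Endothelial genes were divided, with 5 above and 7 below 0. In that list Slc2a1 had a positive slope and Cldn5, a tight junction protein, and Emcn, a surface mucin, had negative ones (−0.10 ± 0.05 and −0.06 ± 0.03, each with an unadjusted p under 0.05 and an adjusted p of 0.727). Astrocyte (9 genes), neuron (17), immediate early (10), p53 (11) and chaperone (12) lists each had at most 2 genes at an unadjusted p under 0.05, against 6.36% of all genes.

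Genes with negative slopes along spleen mass belonged to no single family. Cd40, a co-stimulatory receptor of the TNF receptor family on microglia and B cells, was 5.64, 5.64, 5.49, 5.40 and 5.25 in mid-dark mice in order of spleen mass, and the mid-light mice had 5.52, 5.48, 5.6, 5.25 and 5.34. It was lowest in the mice with the heaviest spleens in both phases, and vehicle injected mice had 5.30 to 5.65. The slope was −0.13 ± 0.03 (SE, n = 10; adjusted p = 0.451), with r = −0.841 (exact permutation p = 0.00271, adjusted p = 0.695; rho −0.794, exact p = 0.0129) and −0.819 without mice 9 and 13. Gpr62, an orphan receptor of oligodendrocytes, had −0.10 ± 0.03 (adjusted p = 0.451) and Dna2, a helicase-nuclease of DNA replication, −0.15 ± 0.04 (adjusted p = 0.511). Gstm1, a glutathione transferase, had −0.09 ± 0.03 and Dnmt3a, a DNA methyltransferase, −0.09 ± 0.03 (adjusted p = 0.727 for each).

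By region, no gene passed adjustment along spleen mass either. The counts at an unadjusted p under 0.05 were 26 genes (3.38%) for hippocampus, 49 (6.36%) for hypothalamus and 53 (6.89%) for brain stem, and the smallest adjusted p was 0.431, 0.156 and 0.312. Of the 11 genes above, 10 had a positive slope in each region, with medians of 0.07, 0.20 and 0.08, and 1, 7 and 4 had a positive slope and an unadjusted p under 0.05, against 1.82%, 3.38% and 4.55% of all genes. Lcn2 had slopes of 0.47 ± 0.24, 0.90 ± 0.23 and 0.60 ± 0.14 in hippocampus, hypothalamus and brain stem (limma, adjusted p of the difference between regions 0.994).

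The smallest p in each region belonged to immune genes, whose mean log2 values over the regions lay between 2.41 and 5.69. In hippocampus these were Cd72, a B cell co-receptor (slope 0.20 ± 0.05, adjusted p = 0.684), and the T cell co-receptor Cd8a (−0.25 ± 0.05, adjusted p = 0.431), whose hippocampal log2 values spanned 2.46 to 3.38. In hypothalamus they were H2-T23, a non-classical MHC class I gene (0.23 ± 0.05, adjusted p = 0.286), and the lymphotoxin gene Ltb (−0.27 ± 0.05, adjusted p = 0.156). In brain stem they were the cytokine receptor chain Il2rg (0.17 ± 0.04) and the mast cell carboxypeptidase Cpa3 (−0.21 ± 0.05; adjusted p = 0.312 for each). The slopes of these genes averaged over regions were 0.07, 0.16, 0.14, −0.08, 0.06 and −0.14 in the order named, so Cd8a had the opposite sign there.

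Slopes along spleen mass were also compared between regions, phases and tumor status. Between regions 36 genes had an unadjusted p under 0.05 (4.68%), none after adjustment, and the smallest p was that of Nrgn, the postsynaptic protein neurogranin of forebrain neurons (limma, adjusted p = 0.866). Its slope was 0.83 in brain stem, 0.07 in hippocampus and −0.09 in hypothalamus. In brain stem its log2 value was 9.79, 10.30, 10.24, 10.06 and 10.18 in mice 3, 19, 5, 9 and 13 and 7.49 to 8.34 in the other 5. The high set held the 2 heaviest spleens of each phase and mouse 5, and Nrgn was 13.25 to 13.90 in hippocampus. The choroid plexus genes Ttr and Trp73 had a median slope of −1.12 along spleen mass in brain stem, both with an unadjusted p under 0.05, and Ttr was 6.96 and 6.78 there in mice 13 and 9 against 11.86 to 13.77 in the other mid-light mice. At mid-dark it was 6.81 in mouse 23 and 11.59 to 13.11 in the others. Whether these values reflect other tissue in the dissected pieces, and its part in the brain stem slopes, was not tested.

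Between phases, 45 genes differed in slope along spleen mass at an unadjusted p under 0.05 (5.84%) and none after adjustment. Lcn2 had the smallest p, with −0.22 at mid-dark and 0.91 at mid-light (limma, adjusted p = 0.777). Between tumor-bearing and vehicle injected mice, 45 genes differed in slope at an unadjusted p under 0.05 (5.84%) and none after adjustment. For Lcn2 the slope was 0.66 with tumors and 0.48 without, a difference of 0.18 ± 0.58, and for Lrg1 it was 0.30 and 0.21, a difference of 0.09 ± 0.22 (SE; adjusted p = 0.988 and 0.982). Spleen mass varied less in vehicle injected mice, with an SD of 0.00968 g, so these differences have wide errors.

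Along tumor mass the smallest p among positive slopes were those of Jun and Klrk1, and among negative slopes those of Gpr183 and Fancd2. Again no gene of 770 passed an adjusted p of 0.05, the smallest being 0.661. At an unadjusted p under 0.05 there were 42 genes (5.45%), 14 with positive slopes (1.82%) and 28 with negative slopes (3.64%). The exact permutation test gave 40 genes at an unadjusted p under 0.05 and none after adjustment. Only Klrd1, a receptor chain of NK cells, of the 770 genes had an unadjusted p under 0.05 along both masses. Taken singly, the shares of all genes were 6.36% along spleen mass and 5.45% along tumor mass. The slopes of Klrd1 were −0.20 ± 0.08 along spleen mass and −0.19 ± 0.08 along tumor mass (exact permutation p = 0.0684 and 0.0955). Along spleen mass r was −0.654, and −0.0946 without mice 9 and 13. Along tumor mass it was −0.598, and −0.207 without mice 9 and 29. The mean log2 value of Klrd1 was under 5.

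Jun and Fos, which pair as the AP-1 transcription factor and are induced within minutes by neuronal activity and stress, had slopes of 0.12 ± 0.03 (adjusted p = 0.711) and 0.33 ± 0.12 (adjusted p = 0.756) along tumor mass (SE, n = 10). Jun was 9.82, 10.02, 10.07, 9.89 and 10.20 in mid-dark mice in order of tumor mass, and the mid-light mice had 9.61, 9.84, 9.78, 9.95 and 10.00. The mouse with the heaviest tumors had the highest value in each phase and the mouse with the lightest the lowest, and vehicle injected mice had 9.75 to 10.24. For Jun r was 0.809 (exact permutation p = 0.0123, adjusted p = 0.861; rho 0.758, exact p = 0.0242) and 0.688 without mice 9 and 29. Fos was 8.63, 8.60, 9.22, 9.67 and 8.91 in mid-dark mice in the same order, and the mid-light mice had 8.42, 9.25, 9.74, 9.59 and 9.58, within which the vehicle injected mice had 8.95 to 9.68. With the A260/A280 ratio in the model the slope of Jun was 0.14 and that of Fos 0.05. Of the 10 immediate early genes, 8 had positive slopes along tumor mass (median 0.06), and Jun and Fos had an unadjusted p under 0.05, against 1.82% of all genes with a positive slope. With the A260/A280 ratio in the model 6 were positive and 4 negative (median 0.03). A positive slope with an unadjusted p under 0.05 was left for 1, against 1.82% of all genes in that model.

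The other genes with the smallest p and a positive slope were Klrk1, the NK cell receptor NKG2D (0.20 ± 0.06), Sesn1, a p53-induced stress protein (0.09 ± 0.03), Tnfrsf17, the plasma cell receptor BCMA (0.17 ± 0.06; adjusted p = 0.711 for each), and Trem3, a myeloid receptor (0.20 ± 0.08, adjusted p = 0.804). Of these Klrk1, Tnfrsf17 and Trem3 lay at low levels, with mean log2 values of 4.6, 4.63 and 3.54. Among genes with negative slopes Gpr183, a receptor for oxysterols that guides immune cells, had the smallest p of all genes. It was 5.86, 5.92, 5.71, 5.77 and 5.63 in mid-dark mice in order of tumor mass, and the mid-light mice had 5.84, 5.80, 5.75, 5.71 and 5.46. At mid-light it descended with each step of tumor mass, and vehicle injected mice had 5.71 to 6.11. Its slope was −0.12 ± 0.03 (adjusted p = 0.661), with r = −0.921 (exact permutation p = 0.00104, adjusted p = 0.802; rho −0.903, exact p = 0.00194), −0.868 without mice 9 and 29, and a slope of −0.14 with the A260/A280 ratio in the model. Fancd2, of DNA crosslink repair, had −0.21 ± 0.05 and the linker histone Hist1h1d −0.15 ± 0.05 (adjusted p = 0.711 for each). Both also had mean log2 values under 5. With the mean A260/A280 ratio, r centred within phase was 0.650 for Klrk1, 0.546 for Sesn1, 0.652 for Tnfrsf17 and 0.761 for Trem3. It was −0.643 for Gpr183, −0.746 for Fancd2 and −0.654 for Hist1h1d.

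**Figure D4:**
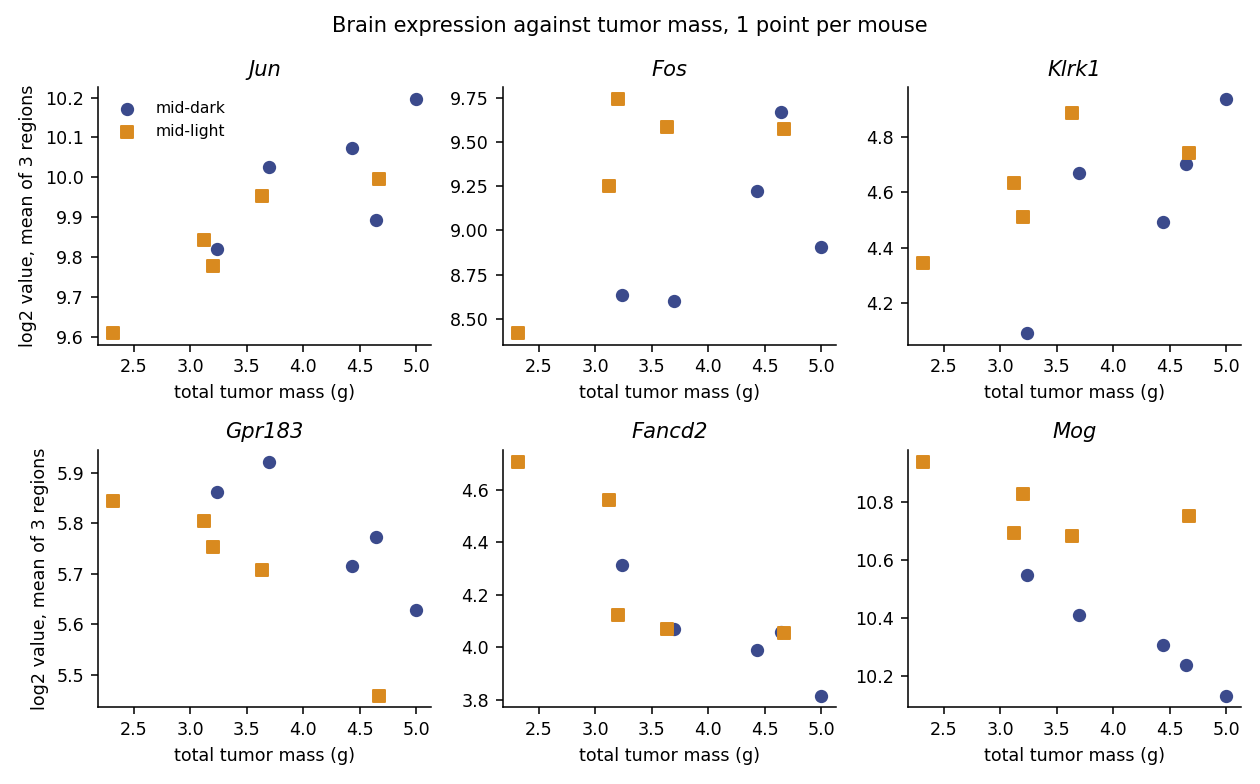
Log2 value, averaged over the 3 regions, against total tumor mass in g for Jun, Fos, Klrk1, Gpr183, Fancd2 and Mog, 1 point per tumor-bearing mouse; circles are mid-dark and squares mid-light. Jun is higher and Gpr183 lower in mice with heavier tumors in both phases, and Mog is lower at mid-dark than at mid-light at every tumor mass.

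Nearly all myelin genes had negative slopes along tumor mass. Oligodendrocytes make myelin under the transcription factor Myrf, and Mag and Mog are proteins of its innermost and outermost layers. Of 23 oligodendrocyte and myelin genes, 22 had negative slopes, with a median of −0.09 (all genes 0.0015), and 12 of them had an unadjusted p under 0.05, against 3.64% of all genes. Myrf had −0.09 ± 0.03, Mag −0.12 ± 0.04 and Mog −0.11 ± 0.03 (SE, n = 10; adjusted p = 0.711 for each). Fa2h and Ugt8a, enzymes that make the lipids of myelin, had −0.13 and −0.10, and Opalin had −0.10. Ninj2, at 0.005, was the exception in sign. Along spleen mass 10 of the 23 were positive and 13 negative, with a median of −0.01.

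Mog was 10.55, 10.41, 10.31, 10.24 and 10.13 in mid-dark mice in order of tumor mass, and the mid-light mice had 10.94, 10.69, 10.83, 10.68 and 10.75. It descended with each step at mid-dark, whereas at mid-light mouse 29 alone stood above the rest, and vehicle injected mice had 10.24 to 10.88. Centred within phase, Mog had r = −0.779 with tumor mass and −0.796 with the mean A260/A280 ratio. Averaged over the 23 genes the log2 value was 9.86, 9.72, 9.69, 9.67 and 9.57 in mid-dark mice, and the mid-light mice had 10.05, 9.94, 10.07, 9.95 and 9.90. The phases did not overlap, and in each the mouse with the heaviest tumors was lowest. Vehicle injected mice, both phases together and most of them mid-light, had 9.69 to 10.10. Centred within phase, the mean of the 23 genes had r = −0.825 with tumor mass and −0.585 with the mean A260/A280 ratio. In tissue RNA, fewer oligodendrocytes in a dissected piece and less myelin mRNA per cell cannot be told apart.

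The slopes of myelin genes were steepest in hippocampus, where all 23 were negative with a median of −0.16 and 11 had an unadjusted p under 0.05, against 3.12% of all genes there with a negative slope. In hypothalamus 20 were negative (median −0.06), 1 at an unadjusted p under 0.05, against 2.99% of all genes there in either direction. In brain stem, the region with the most myelin mRNA, 17 of the 22 fitted there were negative (median −0.02, none at an unadjusted p under 0.05). The gene left out had 1 value in all mice there. Mobp was 14.58 to 14.71 in brain stem, near the highest log2 value of 15.36 in the 30 samples. The part of quantile normalization in the flatter brain stem slopes was not tested. In hippocampus Mag was 9.31, 8.94, 8.63, 8.51 and 8.78 in mid-dark mice in order of tumor mass, and the mid-light mice had 9.80, 9.39, 9.58, 9.27 and 9.38. The difference in slope between regions did not pass adjustment for Mag or for Opalin (limma, adjusted p = 0.9997 for each). Without hippocampus, 18 of the 23 slopes were negative and 0 had an unadjusted p under 0.05. With the A260/A280 ratio in the model 20 were negative and 5 had an unadjusted p under 0.05, against 2.73% of all genes, and without mouse 19 these counts were 19 and 4.

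**Figure D5:**
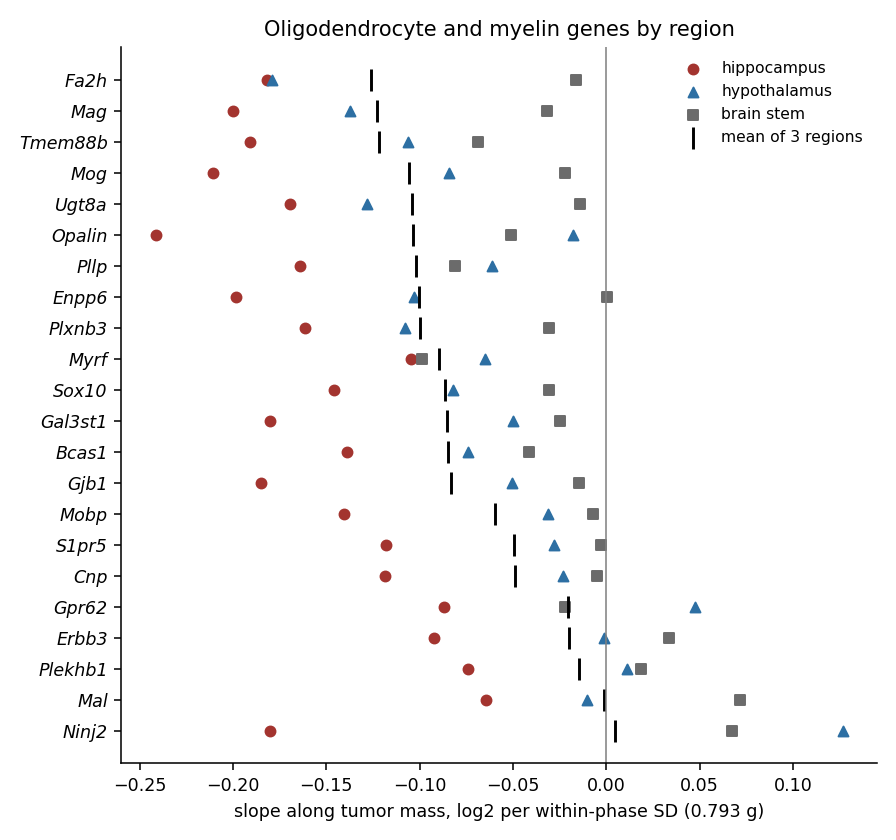
Slope along tumor mass, in log2 per within-phase SD of 0.793 g, of the 22 oligodendrocyte and myelin genes fitted in all 3 regions, in hippocampus (circles), hypothalamus (triangles) and brain stem (squares), with the slope of the mean over regions as a bar. In hippocampus all 22 slopes lie below 0, and most brain stem slopes lie closer to 0.

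Along tumor mass 52.6% of all genes had a positive slope, and 5.45% had an unadjusted p under 0.05 in either direction. With the A260/A280 ratio in the model the median of all genes was 0.0058. In that model 1.82% had a positive slope and an unadjusted p under 0.05, and 2.73% a negative one. These shares are the background of the following lists. Of 17 neuron genes 8 were positive and 9 negative along tumor mass, none with an unadjusted p under 0.05. Astrocyte genes were 7 positive and 2 negative, and 1 gene of 9 had an unadjusted p under 0.05. Phagocytic microglia genes were 4 positive and 13 negative (median −0.01), none with an unadjusted p under 0.05. With the A260/A280 ratio in the model this turned to 13 positive and 4 negative (median 0.05), 1 with an unadjusted p under 0.05. Interleukin and NF-kB genes were 9 positive and 10 negative, and with the ratio 13 and 6, of which 2 had an unadjusted p under 0.05 where none had without it. Acute-phase genes were 7 positive and 3 negative, and with the ratio all 10 were positive (median 0.09), 2 with an unadjusted p under 0.05. Interferon genes were 8 positive and 8 negative, none with an unadjusted p under 0.05. Endothelial genes were 4 positive and 8 negative, none with an unadjusted p under 0.05. Chaperone genes were 9 positive and 3 negative, p53 targets 8 and 3, and B cell genes 6 and 2, each list with 1 gene at an unadjusted p under 0.05. The 4 mast cell genes were all positive, none with an unadjusted p under 0.05, and the log2 of their summed level ranged from 6.63 to 7.58 against 6.76 to 6.96 in vehicle injected mice.

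By region, the counts along tumor mass at an unadjusted p under 0.05 were 44 genes (5.72%) for hippocampus, 23 (2.99%) for hypothalamus and 14 (1.82%) for brain stem, with none after adjustment and smallest adjusted p values of 0.506, 0.524 and 0.964. Fos had the smallest p among positive slopes in hypothalamus (0.48 ± 0.10, adjusted p = 0.524) and in brain stem (0.25 ± 0.08, adjusted p = 0.964). In hypothalamus its log2 value was 8.53, 8.87, 9.73, 9.65 and 9.53 in mid-dark mice in order of tumor mass, and the mid-light mice had 8.88, 9.99, 10.10, 10.20 and 10.34, where it ascended at every step. In hippocampus Socs3 led (0.29 ± 0.06, adjusted p = 0.506), with Tnfrsf11b, the decoy receptor osteoprotegerin, among negative slopes (−0.20 ± 0.06, adjusted p = 0.784). The leading negative slopes were Klrd1 in hypothalamus (−0.45 ± 0.12, adjusted p = 0.915) and Gpr183 in brain stem (−0.14 ± 0.04, adjusted p = 0.964).

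Slopes along tumor mass differed between phases for 32 genes at an unadjusted p under 0.05 (4.16%) and between regions for 20 (2.6%), and none passed adjustment. Between phases Bik, an activator of apoptosis, had the smallest p, with −0.26 at mid-dark and 0.27 at mid-light (adjusted p = 0.26). Between regions it was Uty, with −0.68 for hippocampus, 0.09 for hypothalamus and −0.08 for brain stem (adjusted p = 0.392). Uty lies on the Y chromosome, these mice are female, and its hippocampal log2 values spanned 1.87 to 4.88.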

How the data were processed

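RNA of each region had been hybridised to the nanoString panel named above. Values were deposited on a log2 scale for 770 genes: the authors subtracted negative control background and normalized counts to positive controls and codeset content in nSolver, applied quantile normalization in Partek, and left out outliers by raw data. Raw counts were not used, depth is thus unknown, and the number of mice limits the precision. Masses and absorbance ratios came from the labels.

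Values were averaged over the 3 regions of a mouse, except in fits by region and for slope differences between regions. Those differences were fitted on the 30 samples with mouse as a random replicate block. That fit used 1 correlation for all genes, 0.148 for spleen mass and 0.152 for tumor mass. Slopes were fitted with limma 3.58.1 in R 4.3.3 (moderated test, Benjamini-Hochberg adjustment over all genes tested). Exact tests used all 14400 permutations of the masses within phase (smallest p 6.94e-05). Vehicle slopes used all 10 vehicle injected mice, each value centred within region and phase, and were scaled to the spleen SD of tumor-bearing mice. Genes with 1 value in all mice of a fit were left out of it. Fits were tested on simulated data.

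Genes and lists were chosen with earlier results of these data known. Named genes were the 6 with the smallest p per mass and direction, 1 per region, mass and direction, 1 per slope difference between phases or regions, those with an unadjusted p under 0.05 on both masses, and the 11 genes found higher in tumor-bearing mice. Some genes that meet this rule are not reported here. List examples were chosen by their values. Alternatives changed the scale of the mass, covariates, normalization, regions, mice and a filter on genes whose mean was under 5 on that scale.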

Additional observations from a re-analysis of the deposited data

Results flagged for a closer look

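Among 96 sets of 5 mice (44 named genes, the masses and the RNA ratio, per phase), 3 held a mouse whose gap to the nearest other was large for the range of the set, where chance marks about 1 in 20. Cd72 was 4.84 in mouse 7, the lowest at mid-dark, with the others at 4.98 to 5.02. Uty was 4.52 in mouse 19, the highest at mid-dark, with the others at 3.40 to 3.68. Socs3 was 5.21 in mouse 9, the highest at mid-light, with the others at 4.56 to 4.74.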

How the results depend on the processing

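Of 59 slopes named above, 54 had the same sign under all alternatives tried, and of their 1379 values 26 turned sign. Genes past an adjusted p of 0.05 along spleen mass numbered 2 with mouse as a random replicate block (Lcn2 and Slc2a1), a fit in which the 3 regions of a mouse enter as separate samples. Leaving out 1 mouse gave 0 to 1, the 1 being Lcn2 without mouse 3. In hypothalamus the range was 0 to 1 (Lcn2 without mouse 3, adjusted p = 1.02e-05, and H2-T23 without mouse 29, adjusted p = 0.0483), and in brain stem 0 to 1 (Lcn2 without mouse 3, adjusted p = 0.0391). For slope differences between regions along spleen mass it was 0 to 1 (Nrgn without mouse 5, adjusted p = 0.0135, and Dab2 without mouse 9, adjusted p = 0.00563), all in limma. The fit of these differences also enters the 3 regions of a mouse as separate samples, with 1 correlation for all genes. The cause of these changes was not tested.

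At an unadjusted p under 0.05 the count along spleen mass was 31 with ranks of the mass, and 33 to 76 with 1 mouse left out, the highest without mouse 5. Along tumor mass it was 24 without hippocampus, and 30 to 83 with 1 mouse left out, the highest without mouse 9. The r of spleen and tumor mass was −0.496 without mice 9 and 13, and −0.272 to 0.383 with 1 mouse left out.

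For the 2 list counts the alternatives were chosen after seeing the data. Tumor-raised genes with an unadjusted p under 0.05 along spleen mass numbered 2 with ranks, 2 in the exact permutation test, 3 without hypothalamus and 4 to 6 with 1 mouse left out. This count was not made with mice 9 and 13 both left out. Myelin genes along tumor mass numbered 0 without hippocampus, 7 without hypothalamus, 5 with the A260/A280 ratio as a covariate, 4 with tumor volume in place of mass, and 4 to 13 with 1 mouse left out.

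The 5 slopes that turned sign were −0.02 for Fas along spleen mass and, along tumor mass, −0.02 for Lrg1, 0.01 for Slc2a1, 0.02 for Tgm2 and 0.13 for Ch25h. Along spleen mass Fas had 0.036 without hypothalamus and −0.060 to 0.027 with 1 mouse left out. Along tumor mass, without a phase term, Ch25h had −0.013, Tgm2 −0.0033 and Slc2a1 −0.0055. With ranks Tgm2 had −0.012 and Slc2a1 −0.023, and with both masses in 1 model Slc2a1 had −0.017. Without hippocampus Tgm2 had −0.043, and without hypothalamus Slc2a1 had −0.0088 and Lrg1 0.0098. With body mass as a covariate Tgm2 had −0.012 and Slc2a1 −0.0022. Lrg1 had 0.0064 along log2 mass, 0.024 without brain stem, 0.050 with the A260/A280 ratio and 0.0043 along tumor volume. With 1 mouse left out the ranges were −0.027 to 0.26 for Ch25h, −0.097 to 0.058 for Tgm2, −0.031 to 0.026 for Slc2a1 and −0.17 to 0.098 for Lrg1.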
